A study of Mus musculus with 12 samples.

Results

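The transcripts of 8 stretch-sensing ion channels, Piezo1, Piezo2, Trpv4, Trpc1, Trpc6, Kcnk2, Tmem63a and Tmem63b, were followed in mouse skin scars. They were taken by gene symbol, as mechanically gated members of the Piezo, Trp, Kcnk and Tmem63 families, from the 35976 genes listed in the count data. All 8 were among the 18853 genes that passed the filter on low counts. The scars came from young adult male mice (8 to 12 weeks old) with 3 mice in each of 4 groups: Tem1WT/WT sham, Tem1WT/WT traction, Tem1lacZ/lacZ sham and Tem1lacZ/lacZ traction. In Tem1lacZ/lacZ mice, which had been backcrossed to C57BL/6 J, the only exon of Tem1 is replaced in all cells by a lacZ reporter. They therefore lack TEM1 (also called Cd248 or endosialin), a surface protein of fibroblasts and pericytes, throughout the body and not in scar cells alone. Every mouse had a split wound in the back skin and carried a plastic device, which was lengthened day by day across the healing wound in the traction groups and left as it was in the sham groups. The Tem1 gene is listed as Cd248, and its counts followed the genotype labels, with a log2 difference between Tem1lacZ/lacZ and Tem1WT/WT of -10.25 in sham scars and -10.65 in traction scars.

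A mechanically gated channel opens when the membrane around it is stretched, bent or tugged by the matrix, and lets ions pass within moments. The Piezo proteins and most of the TRP channels pass cations and let calcium into the cell, where calmodulin and the phosphatase calcineurin can switch on NFAT transcription factors. Kcnk2 (TREK-1) instead lets potassium out and quiets the cell, and Tmem63a and Tmem63b belong to the OSCA/TMEM63 family of channels gated by tension or by osmotic swelling. In skin, Piezo2 is best known as the touch sensor of Merkel cells and of sensory nerve endings, whereas Piezo1 serves blood vessels, fibroblasts and keratinocytes.

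Piezo1 was the only member whose difference between groups passed edgeR's quasi-likelihood test in any of the 6 comparisons, and it did so with traction in Tem1WT/WT scars and averaged over genotypes. Its promoter is therefore shown, together with that of Trpv4, a member with like base composition whose level did not pass any test. Both are the 250 bases before a RefSeq transcription start in GRCm38, read 5′ to 3′ on the minus strand, with CpG dinucleotides in capitals. The Piezo1 window lies at chr8:122551330-122551579 and the Trpv4 window at chr5:114658422-114658671.
Piezo1: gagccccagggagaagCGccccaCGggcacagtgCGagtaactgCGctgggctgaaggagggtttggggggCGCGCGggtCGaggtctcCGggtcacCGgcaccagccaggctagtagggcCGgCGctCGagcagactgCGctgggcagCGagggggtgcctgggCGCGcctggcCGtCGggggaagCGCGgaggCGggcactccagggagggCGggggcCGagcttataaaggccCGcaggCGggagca
Trpv4: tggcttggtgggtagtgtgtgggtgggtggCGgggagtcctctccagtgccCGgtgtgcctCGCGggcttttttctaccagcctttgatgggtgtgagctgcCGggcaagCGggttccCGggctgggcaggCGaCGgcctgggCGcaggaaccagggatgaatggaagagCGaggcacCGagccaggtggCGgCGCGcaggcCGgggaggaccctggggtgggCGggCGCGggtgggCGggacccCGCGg
The Piezo1 window holds 26 CpG dinucleotides and is 74% G or C, and the Trpv4 window holds 22 and is 72% G or C. Among 32851 promoter windows of the same length the median was 6 CpG, and 9.59% had at least as many as Piezo1. Promoter windows were found for 7 of the 8 members, with 10 windows in all, and none for Piezo2. Both printed windows lack TGANTCA (a core AP-1 motif, in 6.75% of all windows), GGAATG (a core TEAD motif, 12.6%) and GGAAA (a core NFAT motif, 55.6%), searched on both strands. Among the other members with a window, matches were found only in windows of Kcnk2, which has 4 annotated starts. Its windows held 1 match to the AP-1 motif, 1 to the TEAD motif and 3 to the NFAT motif. CpG counts in the windows of Tmem63a, Tmem63b, Trpc1 and Trpc6 were 23, 31, 17 and 12.

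The library totals lay between 41536788 and 64644293 counts with a median of 48173798, so that even the lowest count of a member, 39 for Trpc6 in a Tem1WT/WT sham scar, was well above 0. Levels are given as CPM, a gene's counts scaled to a common library size after TMM normalization. Cell-type marker sums differed widely between scars. Neutrophil markers (7 genes, among them S100a8 and S100a9) summed to 62.0 to 97.6 CPM in Tem1WT/WT sham scars and to 287 to 6796 CPM in Tem1WT/WT traction scars, with the highest sum in replicate 1. Skeletal muscle markers ranged from 348 to 14050 CPM over the 2 Tem1WT/WT groups. In bulk tissue, a change in the number of cells of a type cannot be told apart from a change in RNA per cell. With traction in Tem1WT/WT scars, all 8 skeletal muscle markers had log2 fold changes from -3.43 to -2.06 with unadjusted p-values under 0.05, and 0 were called. All 8 hair follicle markers had -2.09 to -1.71, 2 of them called, and their sums did not overlap (15180 to 28100 CPM against 4095 to 7522 CPM). The keratinocyte and adipocyte lists had 0 of 8 markers called, the macrophage list 1 of 8 higher and the neutrophil list 4 of 6 tested higher. Of all 18853 genes tested in this comparison with edgeR, 5914 had an unadjusted p under 0.05, 5.61% were called higher and 3.54% lower. The labels name no batch. Each group holds the scars of 3 mice, so that the spread within a group is that between scars.

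Per length of mRNA, the 8 channels ranged over more than an order of magnitude. Levels were divided by the longest coding transcript of each gene in GENCODE vM21 to compare genes (CPM per kb). Over the 12 libraries Tmem63a had the highest mean, 13.5 CPM per kb, followed by Tmem63b with 11.1 and Piezo1 with 9.56. Trpv4 followed with 4.36 and Kcnk2 with 2.62 CPM per kb. Piezo2, Trpc6 and Trpc1 were lowest, with 1.03, 0.912 and 0.519 CPM per kb. Tmem63a lay above Tmem63b in 10 of 12 libraries, Tmem63b above Piezo1 in 9, and Piezo1 above Trpv4 in all 12. Piezo2 and Trpc6 could not be ordered, since either was higher in 6 of the 12 libraries. The place of Piezo1 depends on the group and on the length used. In Tem1WT/WT traction scars its mean was 15.6 CPM per kb, above Tmem63b (12.01) in all 3 scars. Divided by all annotated exon bases, its mean over all libraries was 7.91 CPM per kb against 7.16 for Tmem63b.

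**Figure D1:**
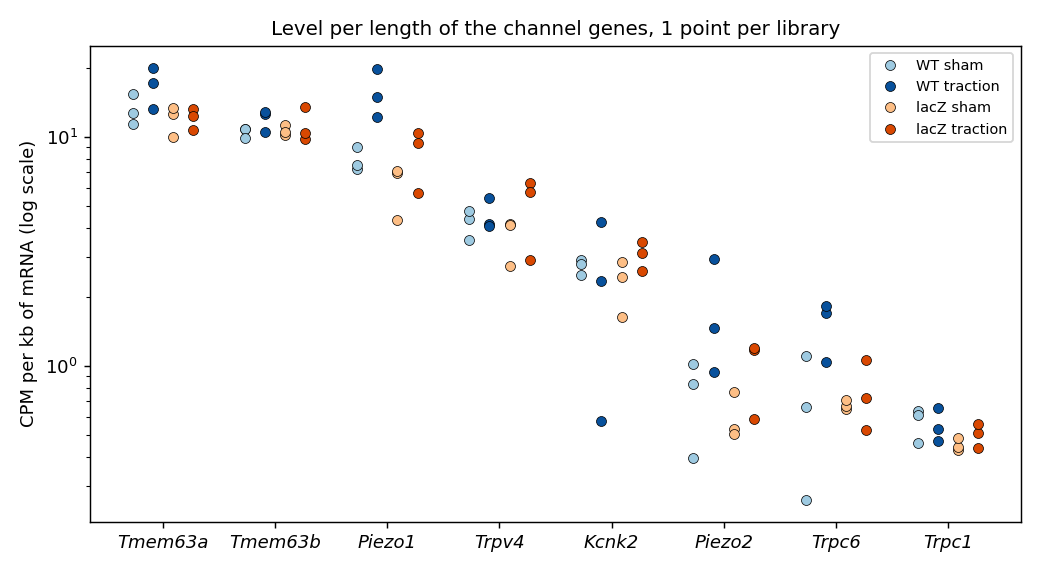
Level of the 8 channel genes in CPM per kb of mRNA on a log axis, ordered by their mean over all 12 libraries, with 1 point per library coloured by group. Piezo1 spans 4.35 to 19.7 CPM per kb and its 3 Tem1WT/WT traction libraries are its highest points, and the lowest Kcnk2 point, 0.573, is a Tem1WT/WT traction library.

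Piezo1 took a larger share of the summed per-length level of the 8 channels in stretched Tem1WT/WT scars. Its share was 17.3%, 18.5% and 23.1% in the 3 Tem1WT/WT sham scars and 27.3%, 26.5% and 30.3% in the 3 Tem1WT/WT traction scars. In Tem1lacZ/lacZ mice it was 12.01% to 20.3% in sham scars and 16.8% to 23.2% in traction scars, so that these groups overlap. Piezo1 was above Piezo2 per length in every library, by 6.71 to 18.2 times.

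Piezo1 encodes the very large trimeric channel that responds to membrane tension. The gene (Entrez 234839) lies on chromosome 8 from 122481698 to 122551329 on the minus strand, with 51 exons in its longest coding transcript. Its level was 59.4, 62.1 and 74.7 CPM in the Tem1WT/WT sham scars and 123, 100.3 and 162 CPM in the Tem1WT/WT traction scars. Every stretched Tem1WT/WT scar was therefore above every unstretched one. The means were 65.4 ± 8.15 and 129 ± 31.2 CPM (SD, n = 3 each). The fitted log2 fold change was 0.98 ± 0.27 (SE), a 1.97-fold higher level, with an adjusted p of 0.0468 in edgeR's quasi-likelihood test.

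Thus 1 of 8 members was called in that comparison, against a background of 5.61% of all tested genes called higher and 3.54% called lower. Groups that did not overlap were common among all genes: in 17.7% of them the 3 Tem1WT/WT traction libraries were all above the 3 sham libraries. The call was near its threshold, and leaving out any 1 of 10 of the 12 libraries moved the adjusted p to between 0.0504 and 0.154. The log2 fold change stayed positive. Without replicate 1 of the Tem1WT/WT traction group, the scar with the highest neutrophil marker sum, the log2 fold change was 0.98 and the adjusted p 0.0826. Piezo1 shares 2441 exon bases with Ctu2, a tRNA-modifying enzyme gene on the opposite strand, and the libraries were stranded but the strand setting of the counting is not given in the sources used here. Ctu2 itself had a log2 fold change of 0.27 in this comparison (edgeR adjusted p = 0.425).

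In Tem1lacZ/lacZ mice Piezo1 was 57.1, 35.7 and 58.5 CPM in sham scars and 46.6, 77.5 and 85.2 CPM in traction scars. Replicate 1 of the traction group lay among the sham values and the other two lay above them. The log2 fold change was 0.47 ± 0.27 (SE), with a 95% interval from -0.12 to 1.05 and an edgeR adjusted p of 0.652. Between genotypes, the stretched Tem1lacZ/lacZ scars were all below the stretched Tem1WT/WT scars, with a log2 difference of -0.88 ± 0.27 (SE) and an edgeR adjusted p of 0.0990, whereas DESeq2 gave -0.90 with an adjusted p of 0.0287. Such separation held for 13.7% of all genes. The unstretched Tem1lacZ/lacZ scars were also all below the unstretched Tem1WT/WT scars, by a smaller difference of -0.37 (adjusted p = 0.577, edgeR), as were 13.8% of all genes. Whether the traction effect differed between genotypes was tested as an interaction, which was -0.51 ± 0.37 (SE) with a 95% interval from -1.33 to 0.32 and an edgeR adjusted p of 0.671. Single libraries moved these values: the interaction was -0.28 without replicate 3 of Tem1WT/WT traction and -0.23 without replicate 1 of Tem1lacZ/lacZ traction. The log2 fold change with traction in Tem1lacZ/lacZ scars was 0.73 without that last scar and 0.30 without replicate 3 of its group. It was also 0.30 without replicate 2 of the Tem1lacZ/lacZ sham group. Without this sham scar the genotype difference in sham scars was -0.19.

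Piezo2, the touch channel, was less abundant and more variable. Its level was 4.25, 10.9 and 8.93 CPM in Tem1WT/WT sham scars and 10.1, 15.7 and 31.5 CPM in Tem1WT/WT traction scars. Replicate 3 of the stretched group was the highest of all 12 libraries, and replicate 1 of that group lay below the highest sham scar. The log2 fold change of 1.25 ± 0.46 (SE) was the largest among the members but did not pass the test (edgeR adjusted p = 0.0953), although it passed with DESeq2 (1.26, adjusted p = 0.0380). Piezo2 was 8.26, 5.69 and 5.43 CPM in Tem1lacZ/lacZ sham scars and 6.28, 12.5 and 12.8 CPM in Tem1lacZ/lacZ traction scars, with a log2 fold change of 0.71 ± 0.46 (SE) and an edgeR adjusted p of 0.677. Under traction, Tem1lacZ/lacZ scars differed from Tem1WT/WT scars by -0.86 ± 0.46 on the log2 scale (SE, edgeR adjusted p = 0.255). Both values depended on replicate 3 of the Tem1WT/WT traction group: without it the traction log2 fold change was 0.69 and the genotype difference -0.28. The latter was -0.55 without replicate 1 of the Tem1lacZ/lacZ traction group. Piezo2 is on the minus strand with 54 exons in its longest coding transcript.

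**Figure D2:**
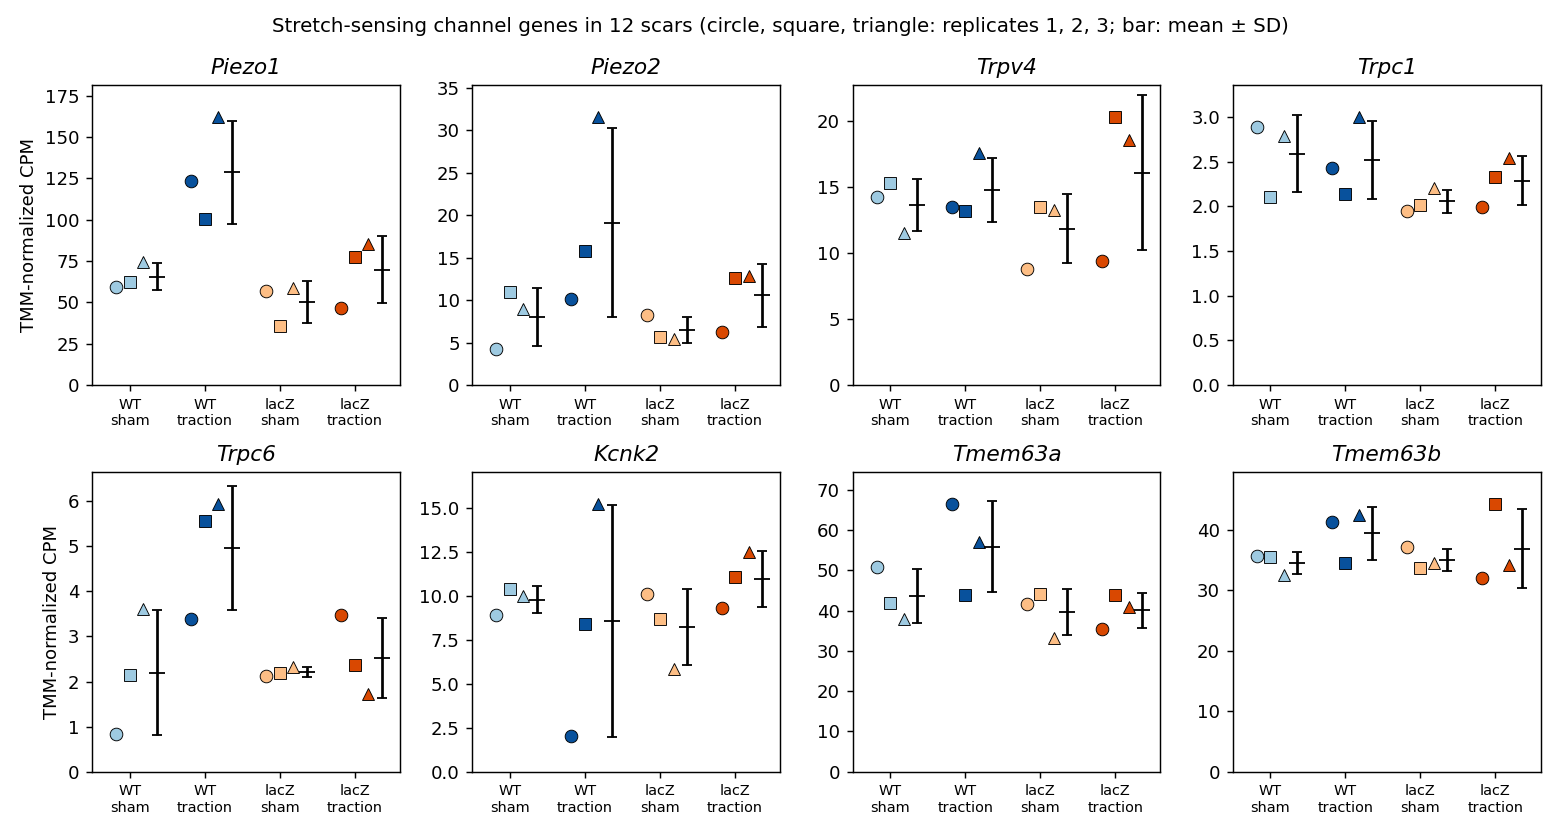
TMM-normalized CPM of each channel gene on a linear axis from 0, with 1 panel per gene, 1 symbol per scar and the mean ± SD of the 3 scars of a group beside it. Piezo1 in Tem1WT/WT traction scars lies above all other groups, from 100.3 to 162 CPM, whereas every other channel gene overlaps between all groups compared.

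Among the TRP channels, Trpc6, a calcium-passing channel opened by diacylglycerol and known for its role with calcineurin in myofibroblasts, was low. The gene (Entrez 22068) lies on chromosome 9 from 8543867 to 8680752 on the plus strand. It was 0.847, 2.15 and 3.603 CPM in Tem1WT/WT sham scars and 3.38, 5.56 and 5.94 CPM in Tem1WT/WT traction scars, from counts of 39 to 289. The highest sham scar and the lowest traction scar overlap. The log2 fold change was 1.17 ± 0.46 (SE, edgeR adjusted p = 0.110), and with DESeq2 it passed narrowly (1.18, adjusted p = 0.0491). In Tem1lacZ/lacZ scars it was 2.12, 2.18 and 2.32 CPM without traction and 3.47, 2.36 and 1.72 CPM with traction, so that the traction values lay on either side of the sham values. The log2 difference between genotypes under traction was -0.98 ± 0.46 (SE), the largest of the 8 members in size, with an edgeR adjusted p of 0.202. Its interaction was -0.98 ± 0.64 (SE, edgeR adjusted p = 0.632), and it was -0.60 without replicate 1 and -1.53 without replicate 3 of the Tem1WT/WT sham group.

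Trpv4 (Entrez 63873; chromosome 5 from 114622152 to 114658435, minus strand), a cation channel opened by swelling, warmth and shear, was 14.2, 15.3 and 11.5 CPM in Tem1WT/WT sham scars and 13.5, 13.2 and 17.6 CPM in Tem1WT/WT traction scars. Values of both groups were mixed, and the log2 fold change of 0.11 had a 95% interval from -0.50 to 0.73 (edgeR adjusted p = 0.819). In Tem1lacZ/lacZ scars Trpv4 was 8.81, 13.5 and 13.3 CPM without and 9.41, 20.3 and 18.6 CPM with traction (log2 fold change 0.44 ± 0.28 SE, edgeR adjusted p = 0.674). That value was 0.76 without replicate 1 and 0.24 without replicate 2 of the traction group. Trpc1 (Entrez 22063; chromosome 9 from 95705072 to 95750386, minus strand), a subunit of TRPC channels that takes part in store-operated calcium entry, lay between 1.95 and 3.00 CPM in all 12 scars. Its log2 fold change with traction was -0.04 in Tem1WT/WT scars, with a 95% interval from -0.57 to 0.49, and 0.16 in Tem1lacZ/lacZ scars, from -0.38 to 0.69.

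Kcnk2, the stretch-opened potassium channel, was spread most widely in stretched Tem1WT/WT scars. The gene (Entrez 16526) lies on chromosome 1 from 189207930 to 189402782 on the minus strand. It was 8.90, 10.4 and 10.01 CPM in Tem1WT/WT sham scars and 2.05, 8.41 and 15.2 CPM in Tem1WT/WT traction scars. The stretched group thus held both the lowest and the highest value of all 12 libraries, and the low value belonged to replicate 1, which had the highest neutrophil marker sum, a link that was not tested. The log2 fold change was -0.19 ± 0.51 (SE, edgeR adjusted p = 0.833) and 0.25 without that scar. In Tem1lacZ/lacZ scars Kcnk2 was 10.1, 8.71 and 5.85 CPM without and 9.32, 11.1 and 12.5 CPM with traction (log2 fold change 0.41 ± 0.51 SE, edgeR adjusted p = 0.835).

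Tmem63a and Tmem63b, which had the highest means per length of coding mRNA over all 12 libraries, were not called by edgeR in any comparison. Tmem63a (Entrez 208795; chromosome 1 from 180942286 to 180975106, plus strand) was 50.9, 41.9 and 37.8 CPM in Tem1WT/WT sham scars and 66.5, 43.9 and 57.1 CPM in Tem1WT/WT traction scars, which overlap (log2 fold change 0.36 ± 0.19 SE, edgeR adjusted p = 0.208). In Tem1lacZ/lacZ scars it was 33.1 to 44.2 CPM without and 35.4 to 43.9 CPM with traction, a log2 fold change of 0.02 with a 95% interval from -0.39 to 0.42. Under traction, the Tem1lacZ/lacZ scars differed from the Tem1WT/WT scars by -0.48 ± 0.19 (log2, SE, edgeR adjusted p = 0.144), and these groups meet at 43.9 CPM, the lowest Tem1WT/WT traction and the highest Tem1lacZ/lacZ traction value. Without replicate 1 of the Tem1WT/WT traction group the genotype difference was -0.30 and the Tem1WT/WT traction log2 fold change 0.195. Tmem63b (Entrez 224807; chromosome 17 from 45660172 to 45686343, minus strand) lay between 32.1 and 44.3 CPM in all scars, and its log2 fold change with traction was 0.19 in Tem1WT/WT scars, with a 95% interval from -0.13 to 0.51. Tmem63b shares 106 exon bases with Mrpl14 on the opposite strand, whose log2 fold change was 0.04 there.

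Across the members, 6 of 8 had a positive log2 fold change with traction in Tem1WT/WT scars. The median of the 8 was 0.27, against -0.01 over all genes tested. In Tem1lacZ/lacZ scars 8 of 8 were positive, from 0.02 to 0.71, with a median of 0.30 against -0.01, and none was called. No gene of the 18853 tested was called there by edgeR (0%), whereas 8.12% had an unadjusted p under 0.05 and none of the members did. DESeq2 and limma-voom called 23 and 435 genes there, and 0 members. Averaged over both genotypes, 8 of 8 members were positive, and Piezo1 was again the only member called (log2 fold change 0.72 ± 0.19 SE, edgeR adjusted p = 0.0409), against 6.5% of all genes called higher and 3.23% lower. Piezo2 and Trpc6 averaged 0.98 ± 0.32 and 0.68 ± 0.32 (SE), with edgeR adjusted p-values of 0.0750 and 0.179. Each traction comparison shares its libraries with the genotype comparisons.

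Between genotypes, edgeR called none of the 8 members, whereas DESeq2 called Piezo1 under traction. In sham scars 0.0106% of all genes were called, 11.7% had an unadjusted p under 0.05 and none of the members did. Their log2 differences lay between -0.37 for Piezo1 and 0.02 for Tmem63b. Under traction 0.106% of all genes were called and 26.1% had an unadjusted p under 0.05, and 2 of 8 members, Piezo1 and Tmem63a, had one. The count of genes called there depended strongly on the fit: edgeR called 20, DESeq2 2309, limma-voom 16, and edgeR without replicate 2 of the Tem1WT/WT traction group 1421. The median log2 difference of the members was -0.31 there, against 0.01 over all genes. In the interaction 0 members and 0% of all genes were called by edgeR, and 8.91% of all genes but none of the members had an unadjusted p under 0.05. DESeq2 called 69 genes there and limma-voom 0, with 0 members in either. The interaction was positive for Kcnk2 (0.60 ± 0.72), Trpv4 (0.33 ± 0.40) and Trpc1 (0.19 ± 0.34, all SE) and negative for the other 5 members.

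**Figure D3:**
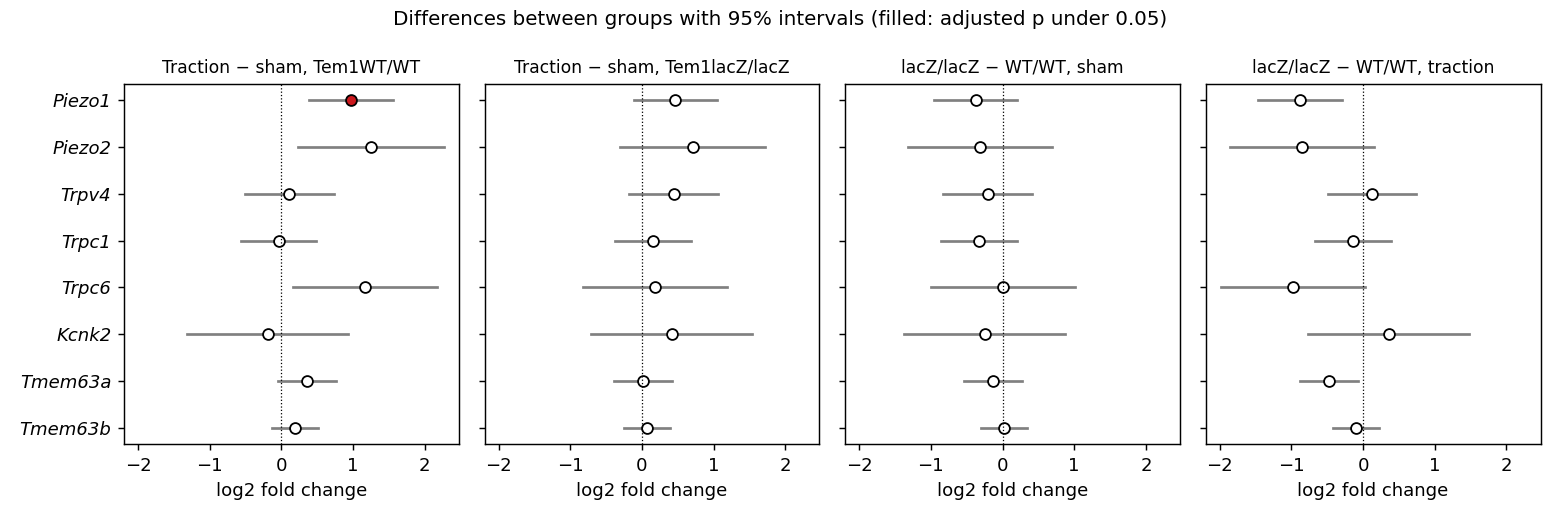
Log2 difference of each channel gene with its 95% interval in 4 comparisons, with a filled symbol where the adjusted p was under 0.05. The single filled symbol is Piezo1 with traction in Tem1WT/WT scars, at 0.98, and in the last panel the intervals of Piezo1 and Tmem63a lie below 0.

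The marker genes of several cell types moved beside the Piezo genes. Fibroblast markers (8 genes, among them Col1a1 and Pdgfra) summed to 26490 to 41950 CPM in Tem1WT/WT sham scars and 44060 to 111400 CPM in Tem1WT/WT traction scars, and 2 of 8, Pdgfra and Fbln1, were called higher. The collagen genes Col1a1, Col1a2 and Col3a1 made up 82.1% to 88.6% of the sum in these sham scars and 88.8% to 94.4% in these traction scars, so that it is mainly a collagen sum. The other 5 markers summed to 3870 to 6050 CPM without and 4920 to 6260 CPM with traction, which overlap, and Dcn (-0.09), Dpt (-0.38) and Lum (0.51) were not called. In Tem1WT/WT sham scars Dcn, Lum and Dpt had means of 2931, 1054 and 602 CPM, against 219 for Pdgfra and 82.1 for Fbln1. The sum of these 5 is therefore mainly one of Dcn, Lum and Dpt, and the called Pdgfra (1.45) and Fbln1 (0.90) weigh little in it. Blood endothelial markers (8 genes, among them Cdh5 and Pecam1) summed to 326 to 486 CPM and 836 to 977 CPM, and 6 of 8 were called higher. In Tem1lacZ/lacZ mice the fibroblast sums were 17920 to 30810 CPM without and 22740 to 50090 CPM with traction, and the endothelial sums were 274 to 463 CPM and 408 to 661 CPM. Over the 12 libraries, log2 Piezo1 had a Pearson correlation of 0.927 with the log2 fibroblast sum and of 0.928 with the endothelial sum. With the 5 fibroblast markers other than the 3 collagen genes it was 0.377, an alternative chosen after seeing the data. Its values were 0.800 with the macrophage sum and -0.803 with the Merkel cell sum. The 12 points share the 4 groups and are not independent. No marker of either list was at 0 in any library. Their part in the Piezo1 difference was not tested.

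Piezo2, known from Merkel cells, was set beside the markers of these cells. Merkel cell markers (6 genes) summed to 12.2 to 17.7 CPM in Tem1WT/WT sham scars and 3.51 to 5.5 CPM in Tem1WT/WT traction scars, where Piezo2 had its highest mean. Of the 5 Merkel markers tested, 1 (Krt8, also a marker of other simple epithelia) was called lower. Krt8 and Krt18, another keratin of simple epithelia, made up 71.5% to 80.9% of the sum in Tem1WT/WT sham scars. Krt8 had a log2 fold change of -2.14. Krt18 (-2.07, edgeR adjusted p = 0.0508) and Isl1 (-2.83, 0.0668) were about as low or lower but not called. Krt20 (-0.38) and Sox2 (-0.34) were not called either. Atoh1, the defining transcription factor, had at most 2 counts in a library and 0 in some. Log2 Piezo2 had a correlation over the 12 libraries of -0.749 with the Merkel sum, of -0.076 with the Schwann cell sum (8 markers), of 0.930 with the fibroblast sum and of 0.909 with the sum of pericyte and smooth muscle markers. Without Krt8 and Krt18 the Merkel value was -0.738. Without the 3 collagen genes, which leaves mainly Dcn, Lum and Dpt in the sum, the fibroblast value was 0.242. The pericyte and smooth muscle sum was 571 to 882 CPM in Tem1WT/WT sham and 746 to 1777 CPM in Tem1WT/WT traction scars, where 1 of 8 markers, Pdgfrb, was called higher. With this traction 6 of the 8 had a positive log2 fold change, whereas Cspg4 (-0.21) and Myh11 (-0.35) had a negative one. Rgs5 (0.87) and Acta2 (1.09), not called, weigh most in the sum. Their means in Tem1WT/WT traction scars were 441 and 451 CPM, against 203 CPM for Pdgfrb. The part of these cells in the Piezo2 values was not tested.

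**Figure D4:**
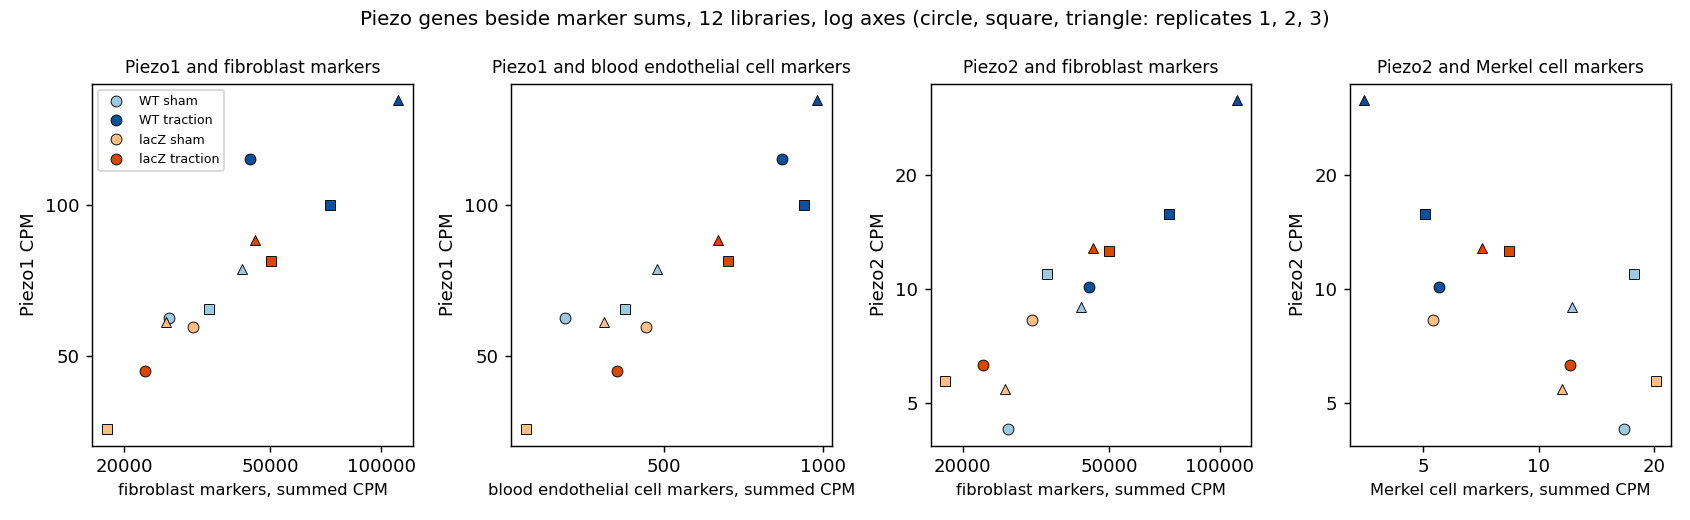
Piezo1 and Piezo2 (CPM) against summed marker CPM in the 12 scars, with log axes and colours by group. The fibroblast sum is mainly collagen. Piezo1 is higher where the fibroblast and endothelial sums are higher (r = 0.927 and 0.928), and Piezo2 is higher where the fibroblast sum is higher and the Merkel sum lower (r = 0.930 and -0.749).

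The other members had correlations with the fibroblast sum of at most 0.623, the value of Trpc6. Trpc6 had its highest correlation with the pericyte and smooth muscle sum, 0.779, and its most negative with the skeletal muscle sum, -0.851. Kcnk2 had -0.725 with the neutrophil sum, in which replicate 1 of the stretched Tem1WT/WT scars takes an extreme place. Trpv4 and Trpc1 had correlations with fibroblast markers of 0.476 and 0.517. Among the members themselves, Piezo1 and Piezo2 were the closest pair (r = 0.818), and Tmem63a and Tmem63b had an r of 0.673.

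For each member, the 3 genes with the most similar pattern over the 12 libraries were taken from 13644 genes whose log2 CPM averaged 1 or more. For Piezo1 these were Arhgap31 (r = 0.988), Clip3 (0.988) and Myo1c, an unconventional myosin (0.986). For Piezo2 they were Palld, an actin-bundling protein (0.977), and the collagen VI chains Col6a2 (0.970) and Col6a3 (0.969). For Trpc6 they were Esm1, a proteoglycan of endothelial tip cells (0.948), Nipa2 (0.929) and Kdelc1 (0.920). For Kcnk2 they were Fam101a (0.953), the epidermal keratin Krt10 (0.949) and Cdk15 (0.944). The closest genes were Gtf3a for Trpv4 (0.845), Gnao1 for Trpc1 (0.866), Apba3 for Tmem63a (0.951) and Dcaf15 for Tmem63b (0.941). These are the highest of 13644 values each, over 12 libraries that share the 4 groups.

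Of 23 other channels known to be gated by force or swelling, 18 passed the filter and 5, among them Trpa1, Tmc1 and Tmc2, had at most 16 counts in any library. With traction in Tem1WT/WT scars 4 of the 18 were called higher and 1 lower, against 5.61% and 3.54% of all tested genes. The median log2 fold change of the 18 was 0.42. Those called higher were Trpv2, a TRPV channel found in leukocytes among other cells (1.24 ± 0.31 SE, edgeR adjusted p = 0.0391), and Pkd2, the polycystin channel (1.04 ± 0.21, 0.0300). The other two were Lrrc8a, the essential subunit of the volume-regulated anion channel (0.84 ± 0.20, 0.0357), and Panx1, an ATP-releasing pore (0.61 ± 0.14, 0.0329). Scnn1b, a subunit of the epithelial sodium channel, was lower (-0.97 ± 0.22, 0.0333). Pkd2 was 74.0 to 90.3 CPM in sham and 154 to 193 CPM in traction Tem1WT/WT scars, so that these groups do not overlap. The same separation, with traction higher, held for 17.7% of all genes. Without replicate 1 of the stretched Tem1WT/WT group 0 of the 18 channels were called by edgeR. In that fit 360 of all 19388 genes tested were called, against 1725 of 18853 with all 12 libraries. Pkd2 (1.05, adjusted p = 0.0518), Scnn1b (-1.10, 0.0509) and Lrrc8a (0.79, 0.0748) then kept log2 fold changes near those above, whereas Panx1 had 0.47 (0.0725) and Trpv2 0.67 (0.0728).

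Of 15 partners and modulators of the channels, 14 were tested and 1 was called, with a median log2 fold change of 0.47. Beside the calls of this list and the next stand 5.61% of all tested genes called higher and 3.54% lower in this comparison, traction in Tem1WT/WT scars. Mdfic, an auxiliary subunit that binds Piezo channels, was higher with traction in Tem1WT/WT scars (0.67 ± 0.18 SE, edgeR adjusted p = 0.0431). It had 0.47 ± 0.18 in Tem1lacZ/lacZ scars (adjusted p = 0.598) and was called in the average over genotypes (0.57 ± 0.13, edgeR adjusted p = 0.0284). Of 17 genes of calcium, calcineurin and NFAT signalling, 1 was called higher with traction in Tem1WT/WT scars, with a median of 0.12. This was Nfatc4, a calcineurin-activated transcription factor, at 15.0 to 23.3 CPM in sham and 39.9 to 78.8 CPM in traction scars (1.59 ± 0.29 SE, edgeR adjusted p = 0.0252). These groups do not overlap, with traction higher, as for 17.7% of all genes. Without that same replicate 1, Mdfic was not called although its log2 fold change was 0.74 (adjusted p = 0.0641, edgeR) and Nfatc4 was (1.63, adjusted p = 0.0441).

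**Figure D5:**
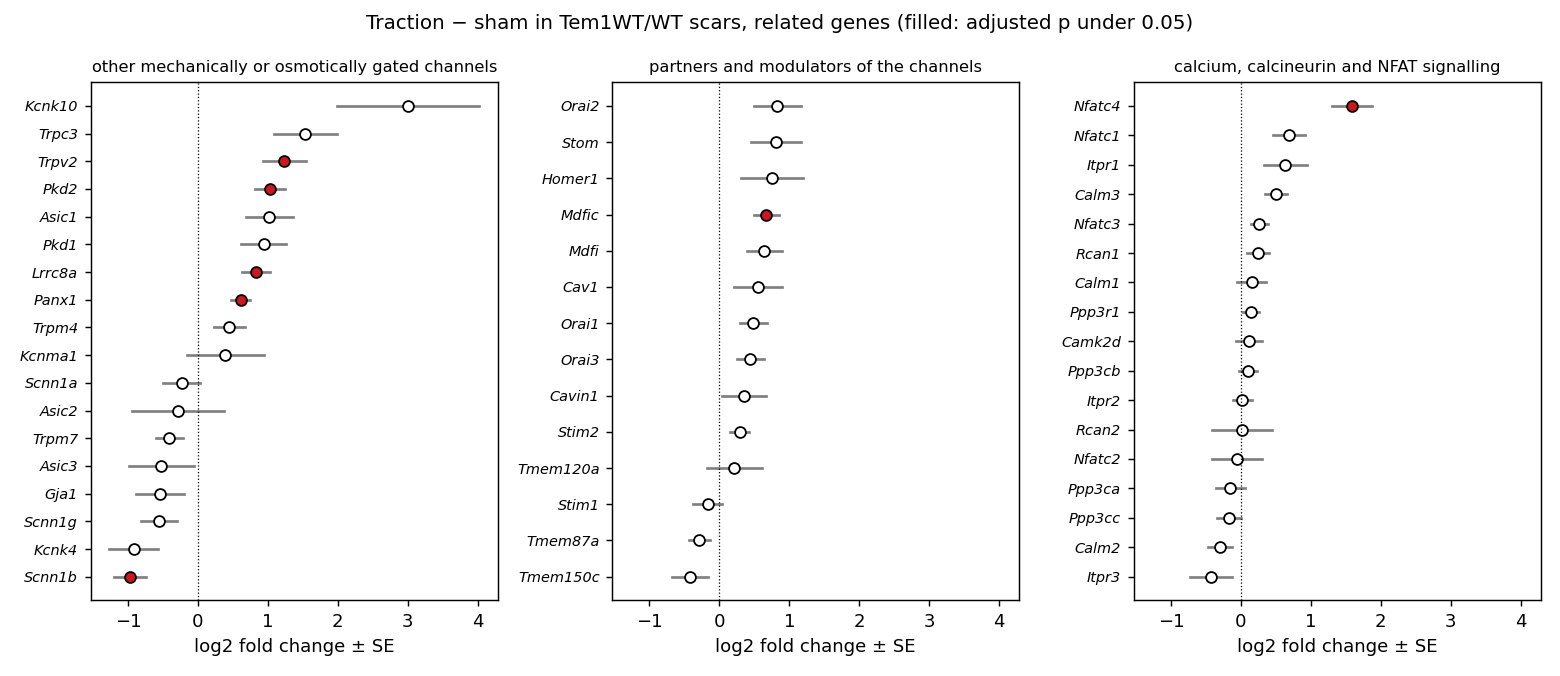
Log2 fold change ± SE with traction in Tem1WT/WT scars for the tested genes of 3 lists: other force- or swelling-gated channels, partners and modulators, and calcium, calcineurin and NFAT signalling. Filled symbols mark an adjusted p under 0.05: Trpv2, Pkd2, Lrrc8a, Panx1 and Scnn1b, then Mdfic, then Nfatc4 at 1.59.

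Averaged over genotypes, 3 of the 18 channels were called higher, Pkd2 (0.67), Lrrc8a (0.54) and the acid-sensing channel Asic1 (0.96), and Scnn1b was lower (-0.57). Over all tested genes 6.5% were called higher and 3.23% lower in this average. In the calcium list Nfatc4 (1.13), Nfatc1 (0.57) and the calmodulin gene Calm3 (0.41) were called higher. None of the 3 lists had a called gene in the other comparisons, where edgeR called 0% to 0.106% of all genes. With traction in Tem1lacZ/lacZ scars, the smallest p-values were those of Kcnma1 (1.51) and Asic1 (0.90), of Mdfic and Tmem150c (0.51), and of Rcan1 (-0.48) and Calm2 (-0.41), all given as log2 fold changes with adjusted p-values of at least 0.598. Between genotypes under traction they were those of Pkd2 (-0.98, edgeR adjusted p = 0.0845) and Lrrc8a (-0.92, 0.0845), of the store-operated channel genes Orai3 (-0.69) and Orai1 (-0.59), and of Rcan1 (-0.65) and Nfatc4 (-1.02). Between genotypes in sham scars they were those of Panx1 (0.31) and Asic2 (-1.49), of Stim1 (-0.45) and Cav1 (0.73), and of Itpr2 (-0.33) and Ppp3cb (-0.31). In the interaction they were those of Panx1 (-0.56) and Trpv2 (-1.15), of Tmem150c (0.94) and Orai1 (-0.58), and of Rcan1 (-0.73) and Nfatc4 (-0.93).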

How the data were processed

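RNA was extracted by the authors from scar tissue, and stranded mRNA libraries were sequenced as paired-end reads. Per the labels and the study's methods, the authors trimmed reads with fastp 0.20.0, aligned them to GRCm38 with HISAT2 2.1.0 and counted them on genes with featureCounts 2.0.0. The deposited values are whole-number counts per gene and library, without normalization. The annotation, the strand setting and the treatment of reads with several alignments are not given in the sources used here. Groups were taken from the genotype and treatment labels.

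Low-count genes were removed with filterByExpr, using the 4 groups. The remaining counts were scaled by TMM, and edgeR 4.0.16 (R 4.3.3) estimated 1 mean per group in a robust quasi-likelihood fit of all 12 libraries, with 8 residual df. All tests are two-sided. The p-values were adjusted by Benjamini-Hochberg over all 18853 genes tested. A gene was called at an adjusted p under 0.05. Standard errors and 95% intervals came from the fit. The common biological coefficient of variation was 34.2%. DESeq2 1.42.0 and limma 3.58.1 were alternatives, and the scripts were tested on simulated counts. Gene lengths came from GENCODE vM21, coordinates and promoters from RefSeq (GRCm38). Correlations used log2 CPM with a prior count of 2. Figures were drawn with Python 3.11.15 and matplotlib 3.10.9.

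No 2 libraries of a group were copies. The members and gene lists were chosen with earlier results of these data known. The genes named are the members, Cd248, every called gene of the 3 lists or else the 2 with the smallest p, and the 3 genes most like each member, and others (marker genes, Ctu2, Mrpl14, untested channels) were named after their values were seen.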

Additional observations from a re-analysis of the deposited data

How the results depend on the processing

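Of 48 differences of the 8 members, 32 kept their direction under every alternative. Piezo1 was higher with traction in Tem1WT/WT scars under all 21 alternatives (log2 fold change 0.78 to 1.14), but was called in 7 of them, with adjusted p-values from 0.00807 to 0.154. Averaged over genotypes it was called in 10 of 20. Members called with traction in Tem1WT/WT scars (1) became 0 with genes of at least 1 count (Piezo1 adjusted p = 0.0579), upper quartile normalization (0.0581), limma-voom with sample weights (0.0779) and only the 6 libraries compared (0.0802), and 3 with DESeq2. Without 1 replicate they were 0 to 1, being 0 without any library except replicate 2 of Tem1WT/WT traction or replicate 1 of Tem1lacZ/lacZ traction. In the average (1) they became 0 with upper quartile normalization, 2 with DESeq2 and 2 with limma-voom, and 0 to 2 without 1 replicate. Of all 18853 genes, 1835 were called in the average by edgeR. With upper quartile normalization 1478 were called, with DESeq2 3850 and with limma-voom 3881. Without 1 replicate the number was 0 to 3422. Between genotypes under traction (0), DESeq2 called 1, Piezo1. The cause was not tested. Over all genes, 1725 were called with traction in Tem1WT/WT scars by edgeR, 4047 by DESeq2, 748 by limma-voom, 0 with only the 6 libraries and 0 without replicate 1 or 2 of Tem1WT/WT sham. Between genotypes under traction they were 20, 2309 and 16 by edgeR, DESeq2 and limma-voom, and 3 to 1421 without 1 replicate. In Tem1lacZ/lacZ scars 0, 23 and 435 genes were called by edgeR, DESeq2 and limma-voom.

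In sham scars the genotype difference of Trpc6 became -0.0317 with genes of at least 1 count, -0.00673 with DESeq2 size factors and -0.00736 with DESeq2, and that of Tmem63b became -0.0083 with genes of at least 1 count. Upper quartile normalization, which moved the median of all genes to -0.12 with traction in Tem1WT/WT scars, gave -0.0231 for Tmem63a with traction in Tem1lacZ/lacZ scars, -0.0176 for Trpc1 in the average and 0.0364 for Tmem63b between genotypes under traction. Limma-voom gave -0.144 for Trpc6 with traction in Tem1lacZ/lacZ scars and 0.0143 for Trpc1 between genotypes under traction.

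Leaving out 1 replicate reversed others. With traction in Tem1WT/WT scars the ranges were -0.0274 to 0.222 for Trpv4, -0.175 to 0.0839 for Trpc1 and -0.898 to 0.253 for Kcnk2. With traction in Tem1lacZ/lacZ scars they were -0.0686 to 0.396 for Trpc6, -0.0684 to 0.143 for Tmem63a and -0.0801 to 0.207 for Tmem63b. In the average Kcnk2 had -0.225 to 0.35. Between genotypes in sham scars Trpc6 had -0.376 to 0.553 and Tmem63b -0.0465 to 0.0655. Under traction Trpv4 had -0.0694 to 0.435, Trpc1 -0.247 to 0.0141, Kcnk2 -0.0702 to 1.08 and Tmem63b -0.245 to 0.0302. In the interaction Piezo2 had -0.844 to 0.0592 and Tmem63b -0.277 to 0.026.

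With a replicate block 1 member was called with traction in Tem1WT/WT scars (Piezo1, adjusted p = 0.0399) and 1 in the average, and none in the other comparisons. The labels do not say whether replicate numbers pair the mice. After group means were removed, same-numbered libraries of different groups had correlations of -0.324 to 0.25. Of 12 libraries, 8 correlated best with a library of their own number, so that a structure by replicate number cannot be set aside.

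For the 3 related lists, alternatives were chosen after seeing the data. The counts of called genes without 1 replicate were 0 to 7 of the 18 channels, 0 to 1 partners and 0 to 2 calcium genes with traction in Tem1WT/WT scars, and 0 to 9, 0 to 1 and 0 to 3 over all alternatives. Among all genes tested, 0 to 2861 were called in this comparison without 1 replicate and 0 to 4047 over all alternatives. The 20 gene differences followed were those of the list genes called with traction in Tem1WT/WT scars or in the average over genotypes. All 20 kept their direction. Since these genes were picked because they were called, this does not show how stable the lists are.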

Other observations

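The Trp and Kcnk channel families were also read as a whole by symbol, after the values were seen. Of 22 Trp channels listed, 16 were tested. With traction in Tem1WT/WT scars 2 were called higher and 1 lower, against 5.61% and 3.54% of all tested genes. Besides Trpv2, the called genes were Trpm2, an oxidant-gated channel known from neutrophils (3.68 ± 0.90 SE, edgeR adjusted p = 0.0371), and Trpv3, a warmth-gated channel of keratinocytes, which was lower (-1.24 ± 0.29, 0.0332). The median of the 16 was -0.22 on the log2 scale. Of 14 Kcnk potassium channels, 11 were tested, with a median of 0.15, and Kcnk5 was called lower (-0.79 ± 0.18, 0.0329). Kcnk10, a close relative of Kcnk2 with at most 113 counts in a library, had 3.00 ± 1.02 (edgeR adjusted p = 0.0782).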
